A study of Mus musculus with 4 samples.

Results

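Phosphofructokinase and the bifunctional enzymes that set its activity are encoded in the mouse by 7 genes, and these were followed in C2C12 myoblasts given recombinant GDF10 for 6 hours. The genes were taken by symbol: Pfkl, Pfkm and Pfkp for the phosphofructokinase subunits, and Pfkfb1, Pfkfb2, Pfkfb3 and Pfkfb4 for the bifunctional enzymes. All 7 were found among the 51826 gene identifiers of the count table, and all 7 were among the 15467 genes with enough reads to be tested. The family was selected on measured values of these libraries, the difference between GDF10 and vehicle included, so its levels and fold changes are a description. Counts of members past a threshold are printed beside the share of all genes, and nothing is read from them.

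C2C12 is an established line of mouse myoblasts that divides in growth medium and forms myotubes when serum is withdrawn. Cells in growth medium received either vehicle or recombinant GDF10, a growth factor grouped with the TGF-beta superfamily and also known as BMP3B, each for 6 hours. Total RNA was sequenced from 2 libraries per group, described in the series as biological replicates. The dose of GDF10 is not given in the sources used here, all 4 libraries come from 1 cell line, and one protocol field names the longissimus dorsi muscle where every other label names C2C12.

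Phosphofructokinase adds a second phosphate to fructose-6-phosphate, the first step that commits a sugar to glycolysis. It works as a tetramer of liver-type (Pfkl), muscle-type (Pfkm) and platelet-type (Pfkp) subunits, and adult skeletal muscle is known for its dependence on the muscle type. Its strongest activator in mammalian cells is fructose-2,6-bisphosphate, which the Pfkfb enzymes both make with their kinase domain and remove with their phosphatase domain. The balance of those activities differs between the isoenzymes, with the product of Pfkfb3 lying far toward the kinase, and Pfkfb3 and Pfkfb4 are textbook targets of the hypoxia-inducible factors (HIF).

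The libraries held 29641165 to 35597310 counts. Levels are given as CPM, the count of a gene relative to the total of its library, scaled with trimmed-mean factors of 0.995 to 1.004, and a count of 3 was worth 0.0840 to 0.101 CPM. The 6 myoblast markers, Myod1, Myf5 and Des among them, were all tested and summed to 1993 to 2054 CPM, none of them called. Markers of mature muscle summed to 7.61 to 10.1 CPM and those of adipocytes to 17.9 to 19.3 CPM, mostly Pparg at 423 to 568 counts, with Adipoq at 0 in every library. Markers of endothelium summed to 0.267 to 0.756 CPM, and the 4 liver markers were at 0 in every library. Blood and platelet markers summed to 18.4 to 22.2 CPM, with 4 of 6 tested, none called, and Hbb-bs at 0 in every library. Of these Hba-a1 (149, 125, 183 and 164 counts in vehicle 1, vehicle 2, GDF10 1 and GDF10 2) and Pf4 (14, 9, 19 and 26 counts) were higher in both GDF10 libraries. This was so in 18.8% of all genes tested. Itga2b (106, 74, 80 and 97 counts) overlapped between the groups, and Ptprc had 2, 0, 0 and 0 counts. The platelet marker Ppbp made up most of that sum, with 385, 389, 384 and 470 counts in the same order, and the part of these markers in the member values was not tested. In bulk RNA fewer cells of a type and less RNA per cell cannot be told apart. The p-values measure only the spread between these 4 libraries.

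Pfkfb4 had the largest difference of the 7 genes, with a mean 1.96 times higher in GDF10 than in vehicle. For the other 6 genes, the subunits of phosphofructokinase and Pfkfb1, Pfkfb2 and Pfkfb3, the log2 fold change lay between -0.26 and 0.16. At an adjusted p of 0.05 (edgeR quasi-likelihood test, Benjamini-Hochberg over all 15467 genes) none of the 7 members was called, against 0.162% of all genes tested. One member (1 of 7, Pfkfb4) had an unadjusted edgeR p under 0.05, DESeq2 called 1 of 7 (Pfkfb4) and limma-voom called 0 of 7. Over all genes tested 918 of 15467 had an unadjusted edgeR p under 0.05, DESeq2 called 65 and limma-voom called 11. In 2 of the 7 genes (Pfkm and Pfkfb4) both GDF10 libraries lay above both vehicle libraries, as in 18.8% of all genes tested. In 1 of the 7 (Pfkfb2) both lay below, as in 19.4% of all genes tested.

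**Figure D1:**
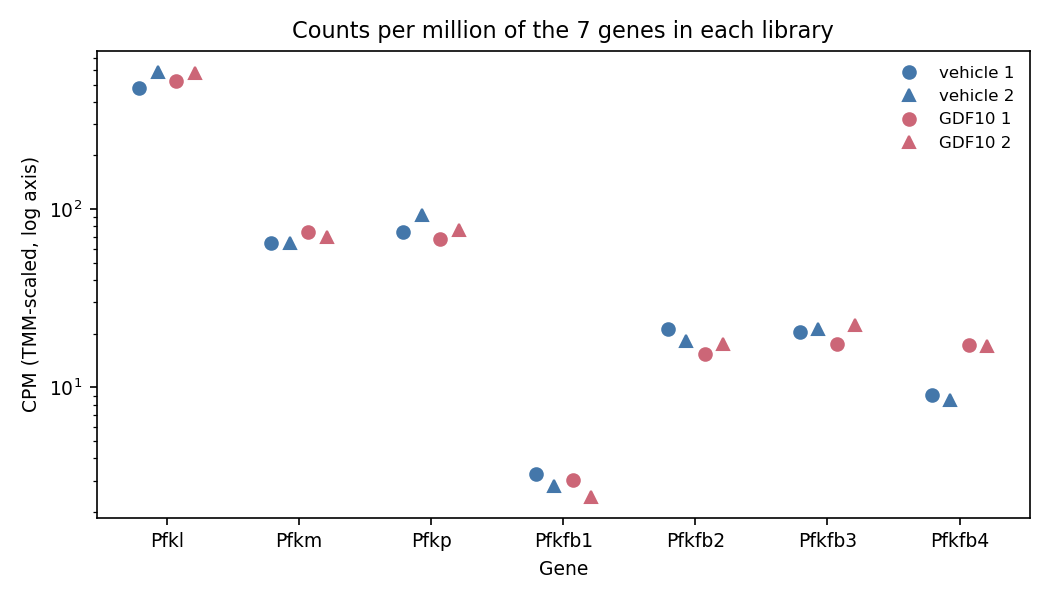
Level of the 7 genes in each of the 4 libraries, in CPM on a log axis, with vehicle in blue, GDF10 in red, circles for replicate 1 and triangles for replicate 2. Pfkfb4 lies at 8.51 to 9.04 CPM in vehicle and 17.0 to 17.4 CPM in GDF10, and the other genes show groups that overlap or lie close together.

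Pfkfb4 (ENSMUSG00000025648, mm10 chr9:108991778-109032228, plus strand) encodes the bifunctional isoenzyme first described in testis. Its vehicle libraries held 323 and 252 counts and its GDF10 libraries 521 and 592. Scaled, this was 9.04 and 8.51 CPM in vehicle and 17.4 and 17.0 CPM in GDF10. Both GDF10 libraries were high, both vehicle libraries were low, and the groups did not overlap. Means were 8.78 ± 0.373 CPM in vehicle and 17.2 ± 0.283 CPM in GDF10 (SD, n = 2 each), a ratio of 1.96 and a log2 fold change of 0.97 (standard error, SE, 0.13). By this fold change it ranked 32nd from the top of the 12089 genes with a mean log2 CPM of at least 1. Within each group the libraries were close: replicate 2 over replicate 1 was 0.942 in vehicle and 0.977 in GDF10. These replicate differences, -0.09 and -0.03 on the log2 scale, were smaller than the standard deviations of 0.12 and 0.09 that counting error alone gives.

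Sequence before RefSeq start sites of Pfkfb4, Pfkfb3 and Pfkfb2 is shown. Averaged over all libraries, though not within each group, these 3 genes had like levels per kilobase of exon (2.66, 2.70 and 2.49 CPM). Their log2 fold changes were 0.97, -0.07 and -0.26 in that order. The stretches lie outside every exon of the GENCODE annotation and come from the RefSeq promoter table on GRCm38.p6, in which all 7 members matched with 16 windows between them. They run 5′ to 3′ on the strand of the gene. The table has 1 window for Pfkfb4, at the start of its GENCODE gene. It has 2 for Pfkfb3, both shown, the first at the start of the GENCODE gene and the second inside the gene. It has 3 for Pfkfb2, all inside the gene, of which the first listed is shown. Capitals mark ACGTG and GCGTG, the core letters bound by HIF, and GTCTG, the letters of a SMAD-binding element, each read on both strands. A CACGTG, the E-box of the Myc and USF families, holds ACGTG on both strands and is counted for both.
Pfkfb4, chr9:108991652-108991777, plus strand: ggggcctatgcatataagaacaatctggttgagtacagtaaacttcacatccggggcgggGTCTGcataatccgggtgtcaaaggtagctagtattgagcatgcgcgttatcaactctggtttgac
Pfkfb3, first window, chr2:11554078-11554179, minus strand: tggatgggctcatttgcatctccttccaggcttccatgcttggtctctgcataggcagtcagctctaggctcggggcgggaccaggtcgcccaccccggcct
Pfkfb3, second window, chr2:11502102-11502340, minus strand: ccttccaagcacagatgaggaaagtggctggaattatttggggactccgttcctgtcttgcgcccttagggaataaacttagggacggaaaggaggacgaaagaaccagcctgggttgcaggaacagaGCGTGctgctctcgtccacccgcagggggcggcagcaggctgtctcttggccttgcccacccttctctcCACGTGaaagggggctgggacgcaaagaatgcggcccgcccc
Pfkfb2, chr1:130715822-130716071, minus strand: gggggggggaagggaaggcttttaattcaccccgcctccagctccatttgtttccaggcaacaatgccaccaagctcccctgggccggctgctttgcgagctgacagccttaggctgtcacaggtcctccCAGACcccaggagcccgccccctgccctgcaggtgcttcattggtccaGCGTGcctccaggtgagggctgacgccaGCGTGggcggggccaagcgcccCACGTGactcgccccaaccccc

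The Pfkfb4 stretch of 126 bases holds 1 GTCTG and neither HIF core. The first Pfkfb3 stretch, of 102 bases, holds none of these letters, and the second, of 239 bases, holds 1 GCGTG and 1 CACGTG and no GTCTG. The Pfkfb2 stretch of 250 bases holds 2 GCGTG, 1 CACGTG and 1 GTCTG, the last read on the opposite strand. Over whole windows, which run from 250 bases before to 50 bases after a RefSeq start, ACGTG was found in 6 of the 16 member windows (Pfkm, Pfkfb2 and Pfkfb3) against 19.62% of 32851 windows of all genes. GCGTG was found in 9 of the 16 against 32.39% of all windows. Each of the 7 genes had it in at least 1 window, but most have several windows, and no share of all genes was computed. GTCTG was found in 7 of the 16 against 49.59% of all windows, and CAGCTG, an E-box of the myogenic factors, in 2 of the 16 against 16.3%. GGCGCC, letters bound by the SMAD proteins of BMP signalling, was in none of the 16 against 11.87% of all windows. The stretches shown for Pfkfb4 and Pfkfb3 end before the RefSeq start, and their whole windows hold further HIF cores. In whole windows there was 1 GCGTG for Pfkfb4, 1 ACGTG in the first of Pfkfb3 and 2 GCGTG in its second. The whole Pfkfb2 window of the stretch shown held no further HIF core. Windows of 1 gene overlap in part, and a match describes letters in a window only.

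Among the other bifunctional enzymes, Pfkfb3 (ENSMUSG00000026773, chr2:11471433-11554077, minus strand), the isoenzyme with the highest ratio of kinase to phosphatase activity, had 735, 630, 524 and 777 counts in vehicle 1, vehicle 2, GDF10 1 and GDF10 2. In CPM this was 20.6 and 21.3 in vehicle and 17.5 and 22.3 in GDF10. The lowest and the highest library were both GDF10 libraries, so the groups overlapped. The log2 fold change was -0.07 (SE 0.14), and it was 0.09 without GDF10 1 and -0.26 without GDF10 2. The GDF10 libraries differed from each other by 0.35 on the log2 scale where counting error gives a standard deviation of 0.08.

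Pfkfb2 (ENSMUSG00000026409, chr1:130689182-130729253, minus strand) encodes the isoenzyme known from heart, a substrate of Akt and of AMP-activated kinase. It had 755, 540, 462 and 607 counts, or 21.1 and 18.2 CPM in vehicle and 15.4 and 17.4 CPM in GDF10. Both GDF10 libraries lay below both vehicle libraries, by a narrow margin between vehicle 2 and GDF10 2. Means were 19.7 ± 2.04 CPM (SD, n = 2) in vehicle and 16.4 ± 1.41 CPM (SD, n = 2) in GDF10, a log2 fold change of -0.26 (SE 0.13). Its exons share 154 bases with Yod1 on the opposite strand, a gene with a log2 fold change of -0.35, and the use of strand in counting is not given in the sources used here. They also share 1262 bases with Gm29427, a gene listed at 0 counts in every library.

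Pfkfb1 (ENSMUSG00000025271, chrX:150588229-150643878, plus strand), known as the isoenzyme of liver and, from another promoter, of muscle, was the least counted member. It had 117, 83, 91 and 85 counts, or 3.28 and 2.80 CPM in vehicle and 3.04 and 2.44 CPM in GDF10. The groups overlapped, and the log2 fold change was -0.16 (SE 0.23). Counting error alone gave a standard deviation of 0.21 to 0.22 between replicates on the log2 scale, so a difference of the size seen was not detectable at this depth. When counts were summed with Apex2, which shares 123 exon bases with it, the log2 fold change was -0.01. Most counts of that sum are those of Apex2 (492, 318, 388 and 420, log2 fold change 0.03), so it is no check on Pfkfb1 itself.

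Pfkl (ENSMUSG00000020277, chr10:77986947-78010083, minus strand), the liver-type subunit, had 17109, 17404, 15623 and 20177 counts, or 479 and 588 CPM in vehicle and 521 and 579 CPM in GDF10. The GDF10 libraries lay between the vehicle libraries. Means were 533 ± 77.1 CPM and 550 ± 40.7 CPM (SD, n = 2 each), a log2 fold change of 0.04 (SE 0.11). Replicate 2 was higher than replicate 1 in both groups, by a factor of 1.23 in vehicle and 1.11 in GDF10, where GDF10 over vehicle was 1.03. These replicate differences were 0.30 and 0.15 on the log2 scale, against counting standard deviations of 0.02 in each group.

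Pfkm (ENSMUSG00000033065, chr15:98092589-98132451, plus strand), the muscle-type subunit, had 2299, 1900, 2222 and 2418 counts, or 64.4 and 64.2 CPM in vehicle and 74.1 and 69.4 CPM in GDF10. Both GDF10 libraries lay above both vehicle libraries. Means were 64.3 ± 0.113 CPM and 71.8 ± 3.37 CPM (SD, n = 2 each), a log2 fold change of 0.16 (SE 0.08). Its exons share 341 bases with Gm26513, which had 20, 14, 10 and 16 counts, and 18 bases with Senp1 on the opposite strand. With all counts of these genes added the log2 fold change was -0.02. Senp1 alone, a SUMO protease gene, had 3314, 2770, 2438 and 3010 counts and a log2 fold change of -0.15. Most counts of the sum are those of Senp1, so it does not tell how many reads fell in the shared bases.

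Pfkp (ENSMUSG00000021196, chr13:6579768-6648777, minus strand), the platelet-type subunit, had 2648, 2740, 2025 and 2669 counts, or 74.1 and 92.6 CPM in vehicle and 67.6 and 76.6 CPM in GDF10. GDF10 2 lay above vehicle 1, so the groups overlapped. Means were 83.3 ± 13.0 CPM and 72.1 ± 6.37 CPM (SD, n = 2 each), a log2 fold change of -0.21 (SE 0.13). As for Pfkl, replicate 2 was higher in both groups, by 1.25 in vehicle and 1.13 in GDF10, where GDF10 over vehicle was 0.865. Pitrm1, on the opposite strand, shares 748 of its exon bases, and summed counts gave -0.13. Most counts of that sum are those of Pitrm1 (4505, 3873, 3666 and 4206, log2 fold change -0.08).

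No run of 50 bases was shared between transcripts of any 2 members. Runs shared with other genes made up none of the 5158 in Pfkfb4, 8.83% in Pfkm (with Gm26513), 5.1% in Pfkp (with Pitrm1) and 17.3% in Pfkfb2 (mostly Gm29427). Pfkl, Pfkfb3 and Pfkfb4 shared no exon bases with another gene.

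**Figure D2:**
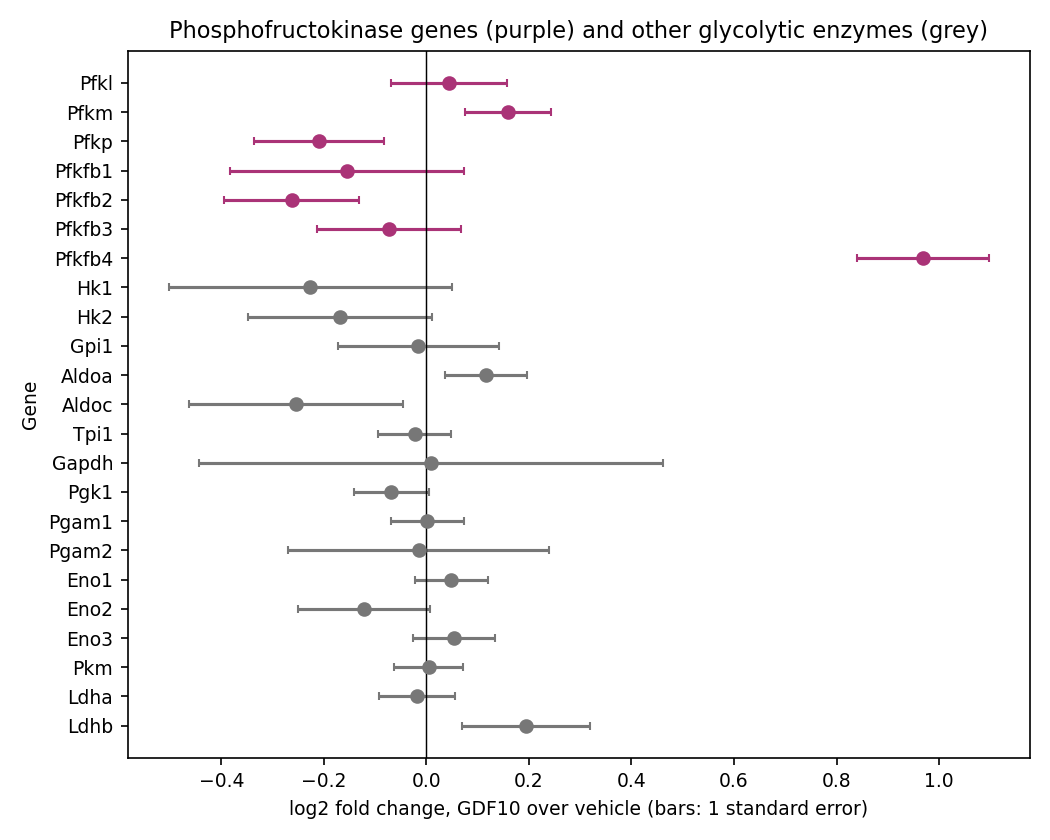
log2 fold change, GDF10 over vehicle, of the 7 members (purple) and 16 other glycolytic enzymes (grey), with bars of 1 standard error. Pfkfb4 lies at 0.97, and the other 22 genes lie between -0.26 and 0.19.

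Between genes, levels were compared per kilobase of exon (CPM divided by the merged exon length in GENCODE M21). On this scale the order of the subunits was the same in every library, with Pfkl at 71.7 to 88.1, Pfkm at 19.2 to 22.2 and Pfkp at 5.04 to 6.91 CPM per kilobase, and no overlap between neighbours. The muscle-type gene thus came after the liver-type gene in these myoblasts. Pfkl took 75.7 ± 1.99% of the summed subunit level per kilobase in vehicle and 75.4 ± 1.74% in GDF10 (SD, n = 2 each). Pfkm took 18.4 ± 2.21% and 19.7 ± 1.93%, and Pfkp 5.89 ± 0.226% and 4.92 ± 0.184%, in the same order. The share of Pfkp was lower in both GDF10 libraries, while those of Pfkl and Pfkm overlapped between groups. With counts not divided by length the mean shares of Pfkm were 9.52% and 10.4% and those of Pfkp 12.2% and 10.4%. On that scale Pfkm lay above Pfkp in GDF10 1 alone (11.2% against 10.2%). That Pfkm lay above Pfkp in every library thus rests on the division by length.

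The 4 bifunctional genes lay below the 3 subunit genes in every library on this scale, Pfkp being the nearest subunit. Pfkfb1 was lowest in every library, at 0.607 to 0.815 CPM per kilobase. In vehicle Pfkfb4, at 1.75 to 1.85 CPM per kilobase, lay below Pfkfb2 at 2.52 to 2.91 and Pfkfb3 at 2.72 to 2.82. In GDF10 it lay above both, at 3.48 to 3.57 CPM per kilobase against 2.13 to 2.40 for Pfkfb2 and 2.31 to 2.95 for Pfkfb3. Pfkfb4 thus lay below this pair in one group and above it in the other, and Pfkfb2 and Pfkfb3 overlapped each other in both groups. The order was the same when CPM was divided by the longest transcript in place of merged exons. It rests on the division by length: in CPM alone the GDF10 libraries of Pfkfb4, at 17.4 and 17.0, lay below those of Pfkfb3 at 17.5 and 22.3 and overlapped those of Pfkfb2.

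As a share of the summed bifunctional level per kilobase, Pfkfb4 held 22.3 and 22.5% with vehicle, against 40.7 and 36.9% with GDF10. Means were 22.4 ± 0.0920% in vehicle and 38.8 ± 2.69% in GDF10 (SD, n = 2 each). The share of Pfkfb2 was 33.7 ± 1.93% in vehicle and 24.8 ± 0.827% in GDF10, and that of Pfkfb3 34.5 ± 2.43% and 28.8 ± 3.42%. With counts not divided by length the mean share of Pfkfb4 was 16.7% in vehicle and 30.7% in GDF10, and that of Pfkfb3 was 39.97% and 35.2%. The shares of a family add to the whole, so the lower shares of Pfkfb2 and Pfkfb3 are not separate measurements from the higher share of Pfkfb4.

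**Figure D3:**
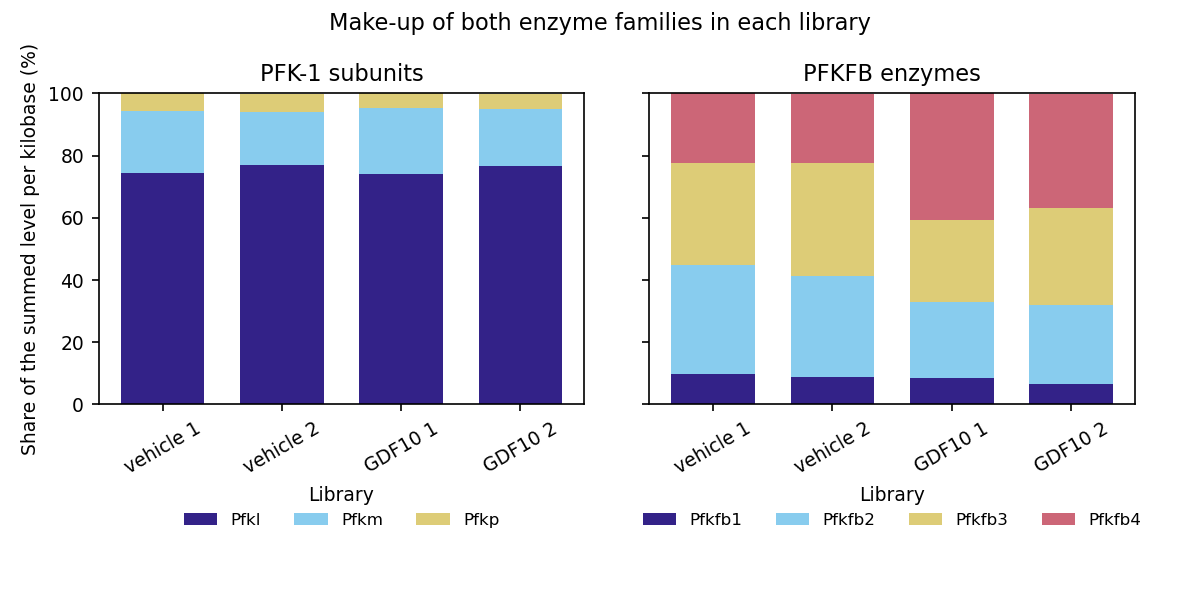
Share of each gene in the summed level per kilobase of its family, in percent, for the subunits (left) and the bifunctional enzymes (right), 1 bar per library. Pfkl holds 74.1 to 77.1% of the subunits in every library, and Pfkfb4 holds 22.3 to 22.5% of the bifunctional enzymes in vehicle and 36.9 to 40.7% in GDF10.

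Summed over the 4 bifunctional genes the level was 8.30 and 7.77 CPM per kilobase in vehicle and 8.76 and 9.44 in GDF10. Both GDF10 libraries were higher, and the ratio of the means was 1.13. Pfkfb4 alone of these genes had a log2 fold change above 0 (0.97). The separation rests on the division by length: with CPM summed as it stands, GDF10 1 lay below vehicle 1. Summed over the 3 subunits it was 96.5 and 114 CPM per kilobase in vehicle and 105 and 113 in GDF10, so these groups overlapped. Subunits over bifunctional enzymes came to 11.6 and 14.7 in vehicle and 12.0 in each GDF10 library, with the vehicle libraries on either side.

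Set among the steps of glycolysis, the phosphofructokinase step lay near the low end in summed level per kilobase. Hexokinase, which traps glucose as its phosphate, was lowest at 42.0 to 63.9 CPM per kilobase. Glucose-6-phosphate isomerase, at 87.5 to 117, overlapped phosphofructokinase at 96.5 to 114. The remaining steps lay higher, from 134 to 225 CPM per kilobase for Gapdh to 625 to 649 for pyruvate kinase and 618 to 681 for phosphoglycerate kinase. Gapdh, singled out after its values were seen, differed more between replicates than between groups, with replicate 2 over replicate 1 at 1.68 in vehicle and 1.61 in GDF10 and a ratio of GDF10 to vehicle of 1.01. With the longest transcript as the length, phosphofructokinase was at 159 to 191 CPM per kilobase and overlapped both the isomerase at 177 to 236 and Gapdh at 169 to 283.

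**Figure D4:**
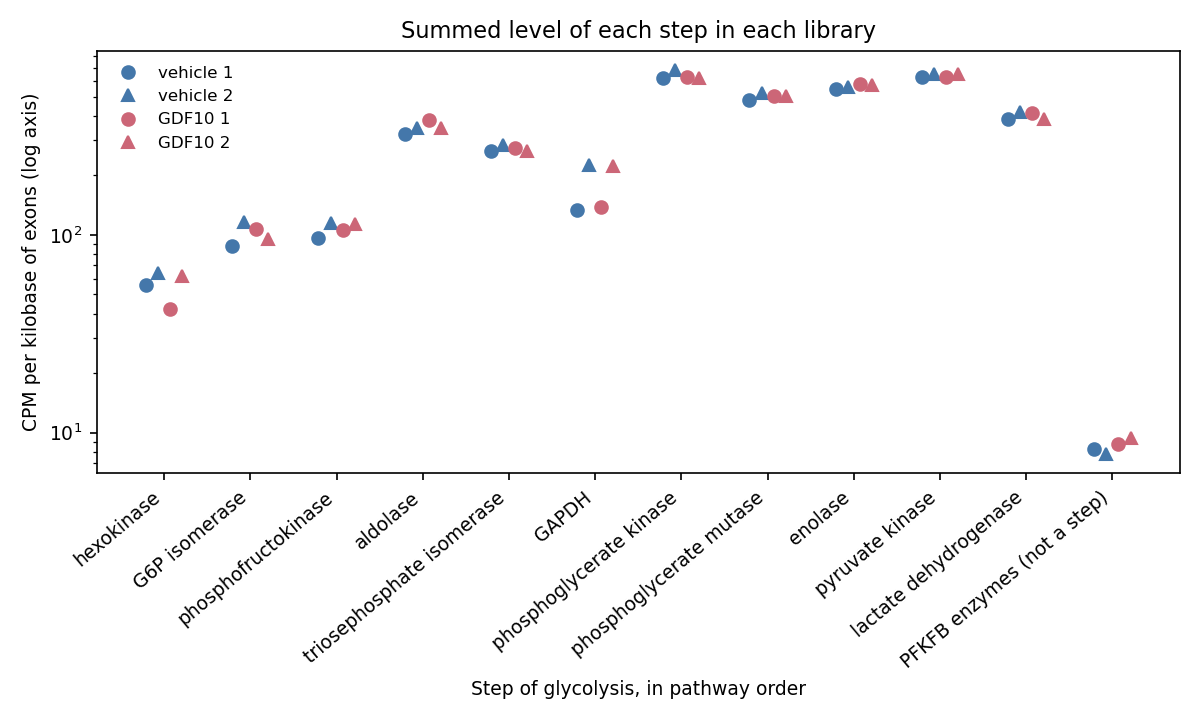
Summed level of the genes of each glycolytic step in each library, in CPM per kilobase of exon on a log axis, in pathway order, with the bifunctional enzymes at the right. Phosphofructokinase lies at 96.5 to 114, next to the isomerase, and the bifunctional enzymes at 7.77 to 9.44.

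The rest of the pathway showed no call. Of 16 other glycolytic enzymes all 16 were tested, and none was called by edgeR, DESeq2 or limma-voom or had an unadjusted p under 0.05 in any of the 3. Their log2 fold changes ran from -0.25 to 0.19, 7 above 0 and 9 below, with a median of -0.02 against 0.00 over all genes tested. The 4 with the lowest p were Ldhb (0.19, SE 0.13), Aldoa (0.12, SE 0.08), Aldoc (-0.25, SE 0.21) and Eno2 (-0.12, SE 0.13), the lowest adjusted p being 0.845 in edgeR. Without vehicle 2 Aldoc was at -0.04 and Eno2 at 0.06, and the median of the 16 was 0.03. Ldhb was 1 of 16 with both GDF10 libraries higher and Aldoc 1 of 16 with both lower, against 18.8% and 19.4% of all genes.

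Hk1, a hexokinase named here after its values were seen, had 9851, 9018, 5731 and 10623 counts, or 276, 305, 191 and 305 CPM. GDF10 1 alone was low. Its log2 fold change was -0.23 (SE 0.28), -0.60 without GDF10 2 (adjusted p 0.0121, edgeR) and 0.07 without GDF10 1 (adjusted p 0.991, edgeR). GDF10 1 was also the lowest library for Hk2 and, among the members, for Pfkfb3, Pfkfb2 and Pfkp. Without GDF10 1 the log2 fold change was -0.18 for Pfkfb2 and -0.12 for Pfkp, against -0.26 and -0.21 with all libraries.

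Fructose-6-phosphate and its neighbours are also drawn on by the pentose phosphate, hexosamine and gluconeogenic routes. Of 13 such genes 10 were tested, and none was called or had an unadjusted p under 0.05 in edgeR, DESeq2 or limma-voom. Tkt (0.12, SE 0.07), Rpia (0.16, SE 0.11) and Rpe (-0.12, SE 0.09, but -0.01 with the GC trend removed), of the nonoxidative pentose phosphate branch, and Pgd (0.09, SE 0.07), of the oxidative branch, had the lowest p, here given as log2 fold changes. Fbp1 and Fbp2, the fructose-1,6-bisphosphatases that reverse the phosphofructokinase step, had 0 counts in every library, which allows up to 0.0840 to 0.101 CPM by counting error. Tigar, whose product also removes the second phosphate of fructose-2,6-bisphosphate, is named for that role after its values were seen. It had 432, 366, 313 and 412 counts and a log2 fold change of -0.13 (SE 0.14), with GDF10 1 and GDF10 2 at 10.4 and 11.8 CPM against 12.1 and 12.4 CPM in vehicle.

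Of 6 genes for glucose and lactate transport 4 were tested, and none was called or had an unadjusted p under 0.05 with any of the 3 tools. Slc2a1, the basal glucose transporter, had a log2 fold change of -0.09 (SE 0.12), and Bsg, the chaperone of the lactate transporters, 0.17 (SE 0.08). The lactate transporters Slc16a1 and Slc16a3 had 0.03 and -0.07. Without vehicle 2 Slc2a1 was at 0.08 and Slc16a3 at 0.15. Slc2a4, the insulin-responsive transporter of muscle and fat, had 4 to 10 counts and was not tested.

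Among 11 genes for kinases that act on Pfkfb proteins and for ligases that mark Pfkfb3 protein for degradation all 11 were tested, and none was called by edgeR, DESeq2 or limma-voom. At an unadjusted p under 0.05 there was none in edgeR or limma-voom and 1 in DESeq2. Prkaa1, a catalytic subunit of AMP-activated kinase, had a log2 fold change of -0.16 (SE 0.07), and Pdpk1, which activates Akt, -0.15 (SE 0.08). With the GC trend removed Prkaa1 was at -0.06, and with the exon length trend removed Pdpk1 was at -0.04. Akt2 had 2358, 1924, 2127 and 4860 counts, so GDF10 2 alone was high. Its log2 fold change was 0.68 (SE 0.42), 0.12 without GDF10 2 and 1.09 without GDF10 1, where it was called (edgeR, adjusted p 0.000517). Prkab2, a regulatory subunit of AMP-activated kinase, had 1006, 978, 790 and 534 counts and was lowest in GDF10 2. Its log2 fold change was -0.56 (SE 0.30), -0.21 without GDF10 2 and -0.997 without GDF10 1, where it too was called (edgeR, adjusted p 0.0220).

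All 20 listed HIF factors and targets were tested, and none was called by edgeR, DESeq2 or limma-voom. Of these 15 had a log2 fold change below 0, as had 49.2% of all genes tested, and the median was -0.08 against 0.00 over all genes. Both values turned on vehicle 2: their summed level was 2293 and 2734 CPM in vehicle and 2305 and 2423 CPM in GDF10, and without vehicle 2 there were 8 of 20 below 0 with a median of 0.05. Car9, a carbonic anhydrase that serves as a marker of hypoxia, was the 1 gene with an unadjusted p under 0.05 in edgeR. It had 4.93 and 6.22 CPM in vehicle and 3.27 and 3.64 CPM in GDF10, so both GDF10 libraries were lower, with a log2 fold change of -0.69 (SE 0.20). Its edgeR adjusted p was 0.791, and 918 of 15467 genes tested had an unadjusted edgeR p under 0.05. Pdk1, a pyruvate dehydrogenase kinase, and Vegfa, an angiogenic factor, had -0.20 (SE 0.13) and -0.15 (SE 0.10), and -0.04 and -0.02 without vehicle 2. Epas1, the gene of HIF-2 alpha, rested on 8, 4, 11 and 12 counts, with a log2 fold change of 0.95 (SE 0.61).

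The genes whose pattern over the 4 libraries was most like that of Pfkfb4 were found by the Euclidean distance between log2 CPM profiles, each centred on its own mean, among 12088 other genes with a mean log2 CPM of at least 1. The nearest was Pigk, at a distance of 0.03, with 49.5 and 45.6 CPM in vehicle and 92.6 and 90.9 CPM in GDF10. It was followed by Tmem189 at 0.10, Trim39 at 0.11, Krr1 at 0.13 and Aamdc at 0.15, with log2 fold changes of 0.91, 0.91, 0.96 and 0.84. A total of 55 genes lay within a distance of 0.5. With 4 libraries in 2 groups a near profile says little more than that a gene differed between the groups by a like amount and little between replicates.

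**Figure D5:**
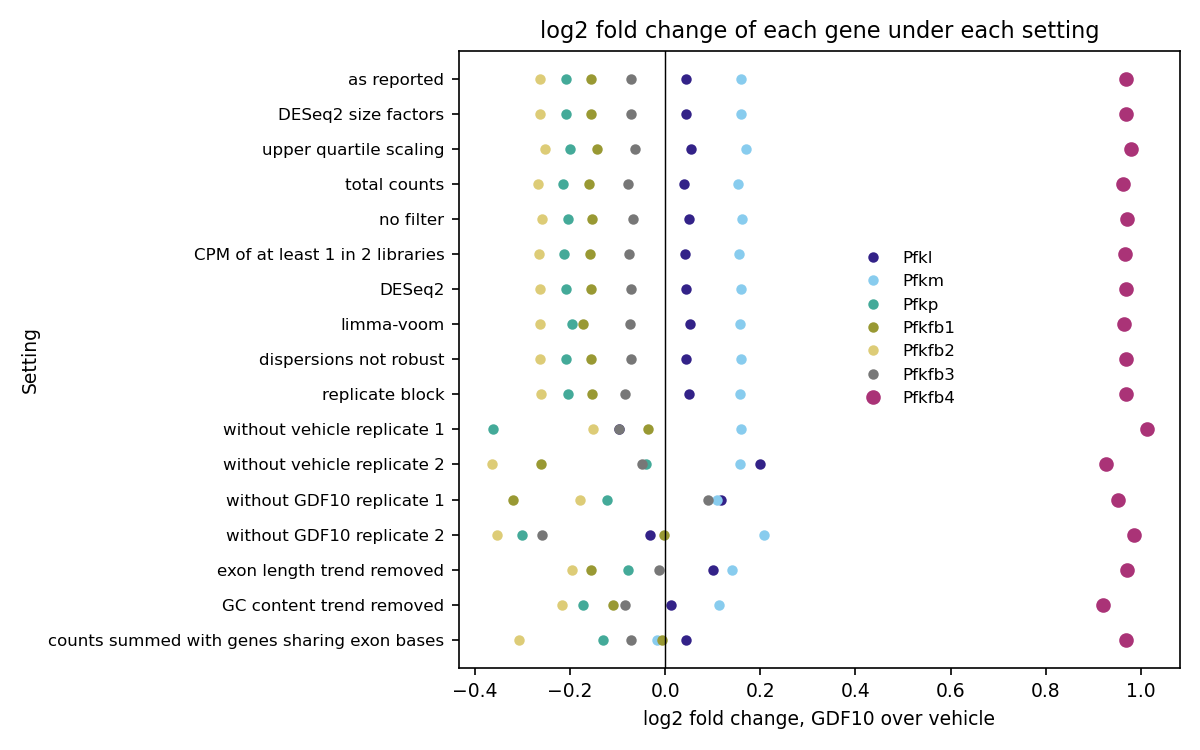
log2 fold change of the 7 genes as reported (top line) and under each of 16 other settings, with Pfkfb4 as the larger purple points. Pfkfb4 lies between 0.92 and 1.01 in all of them, while Pfkl, Pfkm and Pfkfb3 cross 0 in some.

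Over 16 other ways of processing the counts, the log2 fold change of Pfkfb4 ran from 0.92 to 1.01. Pfkfb2 (-0.36 to -0.15), Pfkp (-0.36 to -0.04) and Pfkfb1 (-0.32 to -0.002) kept their sign in all 16, which draw on the same libraries. Pfkl (-0.10 to 0.20) kept it in 14, Pfkm (-0.02 to 0.21) in 15 and Pfkfb3 (-0.26 to 0.09) in 15. For Pfkm the exception was the sum with Senp1 and Gm26513, made up mostly of Senp1 counts.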

How the data were processed

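The data are raw read counts for each gene in 4 libraries, as deposited by the authors, whole numbers with no scaling applied. The submitters' processing notes list, with no role or order, HISAT2 2.0 and StringTie 1.3.3b beside Trimmomatic 0.36, FastQC 0.11.2, DESeq2 1.12.4 and bedtools 2.26.0, and the build mm10. How reads were assigned to genes, with which annotation and whether by strand, is not given in the sources used here, so reads in shared exons may have been split or assigned to either gene. Columns headed Con were matched to the vehicle libraries by group and replicate. Identifiers were matched to GENCODE M21 (51633 of 51826), which gave symbols, mm10 positions and exon lengths. Total counts per library limit the precision as given with each gene.

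The test was the quasi-likelihood F test of edgeR 4.0.16 under R 4.3.3 (filterByExpr with a minimum count of 10, TMM, robust dispersions, glmQLFTest, no covariate), GDF10 against vehicle, 2 libraries each, with Benjamini-Hochberg adjustment over 15467 genes and a threshold of 0.05. Alternatives were DESeq2 1.42.0, limma 3.58.1, other scalings and filters, exon length or GC trends removed, a replicate block, and each library left out. Scripts were tested on simulated data. The members and gene lists were chosen with earlier results of these data known. Named by rule are the 7 members, up to 4 genes of lowest p per list, and the 5 genes nearest in profile to Pfkfb4.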

Additional observations from a re-analysis of the deposited data

How the results depend on the processing

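Over all genes 25 were called, against 65 with DESeq2, 11 with limma-voom, 9 without robust dispersions, and 27 to 224 when 1 library was left out (27 without vehicle 1, 44 without vehicle 2, 112 without GDF10 1 and 224 without GDF10 2). Of the 7 members 0 were called, and 1, Pfkfb4, was called with upper quartile scaling (1 of 7), with DESeq2 (1 of 7) and with the exon length trend removed (1 of 7). Over all genes these settings called 29, 65 and 33, in that order. With 1 library left out its group's other library is assumed to vary like the other group. This gave 0 to 1 members called, the 1 without GDF10 2. Of the other glycolytic enzymes 0 to 1 were called when 1 library was left out, the 1 being Hk1 without GDF10 2. With the replicate number as a block (replicate block) 23 genes and 0 members were called and Pfkfb4 had a log2 fold change of 0.97. Taken over all genes, same-numbered libraries deviated together little (correlation across genes 0.07), so they were not treated as pairs. Single genes differed in this. With the block the SE of Pfkl, Pfkp and Gapdh was 0.06, 0.07 and 0.06, against 0.11, 0.13 and 0.45 without it. For Pfkfb2 and Pfkfb4 it was 0.14 and 0.13, against 0.13 and 0.13. Summing counts over genes that share exons was added after the data were seen. Of 35 genes named, 26 kept their direction in every alternative that gave a value. The cause of these differences was not tested. With 2 libraries per group, small differences such as those of the members other than Pfkfb4 are not resolved.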
